A study of Arabidopsis thaliana with 24 samples.

Results

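The comparison described here set uncapped and cleaved RNA of ABA-treated dxo1 plants against that of ABA-treated wild type plants. It used 4 of the 24 libraries of the series, chosen by their labels: 2 GMUCT libraries of dxo1 with ABA and 2 of Col-0 with ABA. The plants were Arabidopsis thaliana aged 12 days. Col-0 is the wild type accession, and dxo1 is a mutant of the gene DXO1 whose allele the labels do not describe. ABA is abscisic acid, whose dose and duration the labels do not give, and both genotypes of this comparison received it. The labels name seedlings in one place and bud tissue in another. Of 16 floral organ genes only 3 had enough counts to be tested, and these 3 together summed to 2.2 to 3.0 CPM in each library, whereas all 22 antenna and Rubisco small subunit genes were tested and summed to 26854.6 to 44864.6 CPM. CPM, a unit of counts relative to library size, were scaled by the TMM method so that most genes balance between libraries. Replicates carry numbers only, so that p-values measure the spread between the labelled samples, which may be technical.

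GMUCT, the genome-wide mapping of uncapped and cleaved transcripts, sequences RNA with a free 5' phosphate. Such ends arise when the cap is removed before decay by 5' to 3' exonucleases, or when an endonuclease such as a microRNA-guided Argonaute cuts the RNA. DXO1 belongs to the DXO family of enzymes, which remove the NAD cap and other non-canonical caps from RNA 5' ends. ABA is the plant hormone of seed maturation, dormancy and drought. It acts through PYR/PYL receptors that inhibit clade A PP2C phosphatases, and it promotes transcription of late embryogenesis, dehydrin and seed storage genes. A gene's GMUCT count rises with the amount of its RNA and with the share that is uncapped or cleaved, and the gene counts do not separate these, nor decapped from cut ends. In whole tissue, fewer cells of a type and less RNA per cell cannot be told apart either.

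The ABA libraries held 6429423 and 5793714 gene counts in Col-0 and 8364163 and 9782727 in dxo1. Replicates correlated across tested genes at r = 0.979 in Col-0 and 0.985 in dxo1 on the log2(CPM + 1) scale, against 0.936 to 0.940 between genotypes, and genes are not independent replicates. TMM factors were 0.881 and 0.892 in Col-0 and 1.06 and 1.08 in dxo1. With library size alone as the scale, the median log2 fold change of all genes moved from 0.01 to 0.28. All changes are given relative to the typical gene.

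DXO1 itself (AT4G17620) kept reads in every library. Its level was 30.6 and 32.3 CPM in Col-0 and 18.9 and 15.7 CPM in dxo1, with no overlap of the genotypes. The log2 fold change was -0.87 ± 0.18 (adjusted p = 0.0013). Gene-wide counts cannot tell a functional transcript from a truncated one.

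Of 28775 genes in the files, 19644 had enough counts for a test and 6025 passed it at an adjusted p under 0.05, which is 30.7% of those tested. In dxo1, 2917 genes (14.8%) were higher and 3108 (15.8%) lower, with median log2 fold changes of 0.95 and -0.92. The counts of every gene list below are to be read against these shares. With library size alone the split was 5642 higher and 1907 lower, or 74.7% higher instead of 48.4%. Changes of over 2 on the log2 scale were found for 321 higher and 341 lower genes, and of over 3 for 126 and 102. ICL, the glyoxylate cycle enzyme isocitrate lyase, combined a high level with a fall, and PR1, a marker of salicylate response, combined a low level with a rise.

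**Figure D1:**
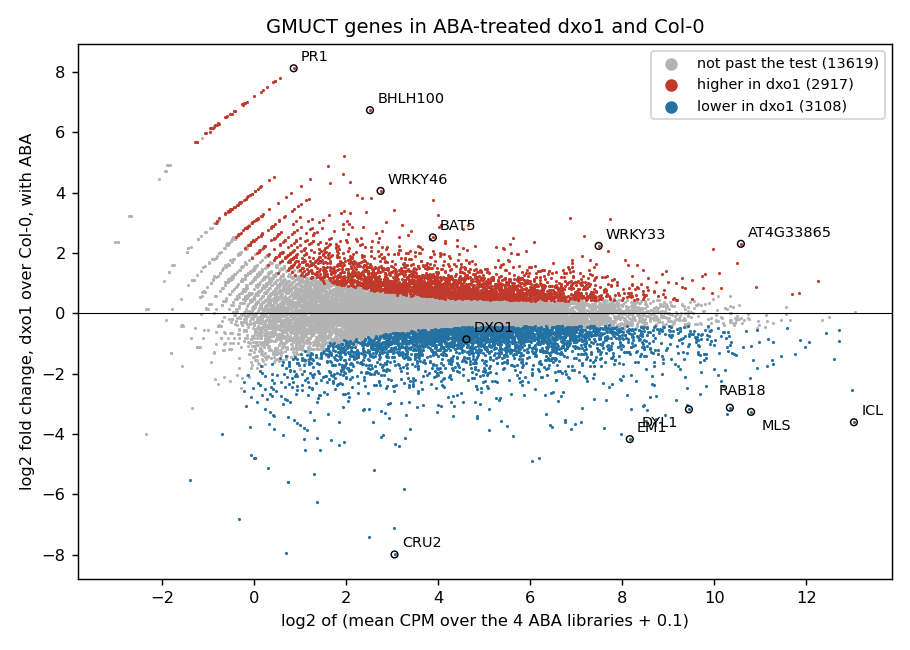
Log2 fold change of dxo1 over Col-0 with ABA (vertical axis) against the log2 mean CPM of the 4 ABA libraries plus 0.1 (horizontal axis) for 19644 genes. Red points were higher in dxo1 (2917), blue points lower (3108), and grey points did not pass the test. ICL lies far right at -3.61, while the rows of points at the left edge are genes with few counts.

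Genes of seed reserves and of their use fell in dxo1. Of 19 seed maturation genes, which encode storage proteins, oil-body oleosins, late embryogenesis proteins and the regulators ABI3, ABI4 and ABI5, 17 were tested. Of these, 15 were lower in dxo1 and none higher, with a median log2 fold change of -2.87 against 0.01 over all genes. The median stayed between -3.04 and -2.60 under 13 alternative settings. EM1, a late embryogenesis protein, was at 543 and 543 CPM in Col-0 and 36.8 and 23.6 CPM in dxo1. Both dxo1 values lay far below both Col-0 values. EM1 thus fell by 4.17 ± 0.21 in log2 units (adjusted p = 7.4e-11).

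The late embryogenesis gene M17 was at 807 and 762 CPM in Col-0 and 72.5 and 67.0 CPM in dxo1, a log2 fold change of -3.49 ± 0.17 (adjusted p = 5.3e-11). OLEO2, an oleosin that coats oil bodies, was at 676 and 568 CPM in Col-0 and 78.5 and 68.5 CPM in dxo1, and fell by 3.08 ± 0.18. Cruciferin CRU1, a storage globulin, was at 1072 and 942 CPM in Col-0 and 134 and 142 CPM in dxo1, and fell by 2.87 ± 0.18. In each of these genes the 2 dxo1 libraries were close to each other and well apart from Col-0. For CRU2, another cruciferin, the libraries held 84 and 92 counts in Col-0 and 0 and 1 counts in dxo1. This is a ratio of 316 in favour of Col-0 with a 95% exact counting interval of 55.9 to 12537, which covers counting error only. The cupin PAP85 (-5.84 ± 0.46) and the seed protein ATECP31 (-4.11 ± 0.42) were also among the largest falls. ABI4, a transcription factor of ABA response in seeds, was at 19.6 and 11.6 CPM in Col-0 and 0.793 and 0.755 CPM in dxo1, and fell by 4.32 ± 0.42 (adjusted p = 7.4e-07). Its Col-0 values differed from each other more than its dxo1 values did, yet the genotypes did not overlap. CRU2, PAP85, ATECP31 and ABI4 had enough counts for the test only through Col-0 with ABA, so a call of higher in dxo1 was hardly possible for them. With no low-count filter 19 seed maturation genes were tested, and 16 were lower and 0 higher. The 2S albumin genes SESA1 (-0.18) and SESA2 (-0.94) were the tested members that did not pass.

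In the Col-0 libraries ICL had the highest level of the genes named here. It stood at 15270.0 and 15738 CPM in Col-0 and 1328 and 1205 CPM in dxo1. The fall was 3.61 ± 0.18 in log2 units (adjusted p = 7.4e-11). Without ABA it was at 21.5 and 23.7 CPM in Col-0 and 34.7 and 27.9 CPM in dxo1, far lower in both genotypes. MLS, the malate synthase that acts after isocitrate lyase, was at 3182 and 3274 CPM in Col-0 and 371 and 297 CPM in dxo1, and fell by 3.27 ± 0.17 (adjusted p = 1.7e-10). PCK1, the carboxykinase that leads from these acids to sugar, was at 813 and 674 CPM in Col-0 and 185 and 184 CPM in dxo1, and fell by 2.01 ± 0.16. MFP2, a multifunctional enzyme of fatty acid beta-oxidation, fell by 1.35 ± 0.15, with 256 and 270.2 CPM in Col-0 and 96.8 and 109 CPM in dxo1. In all 4 genes every dxo1 value lay below every Col-0 value, though genes picked by a small p in this comparison would mostly do so.

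Of the 18 genes of the glyoxylate cycle and peroxisomal beta-oxidation, 12 were lower and none higher, with a median of -0.62. Under the alternative settings the median lay between -0.72 and -0.35, and 7 (with library size alone) to 12 members were lower, with 1 higher with library size alone or without Col-0 ABA replicate 2. The summed level of the list was 22515.5 and 22863.4 CPM in Col-0 and 3899.4 and 3700.3 CPM in dxo1, and in Col-0 most of it was ICL and MLS. The peroxisomal citrate synthase CSY2 (0.08), the lipase SDP1 (-0.01) and the acyl-CoA synthetase LACS6 (0.25) did not pass the test.

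**Figure D2:**
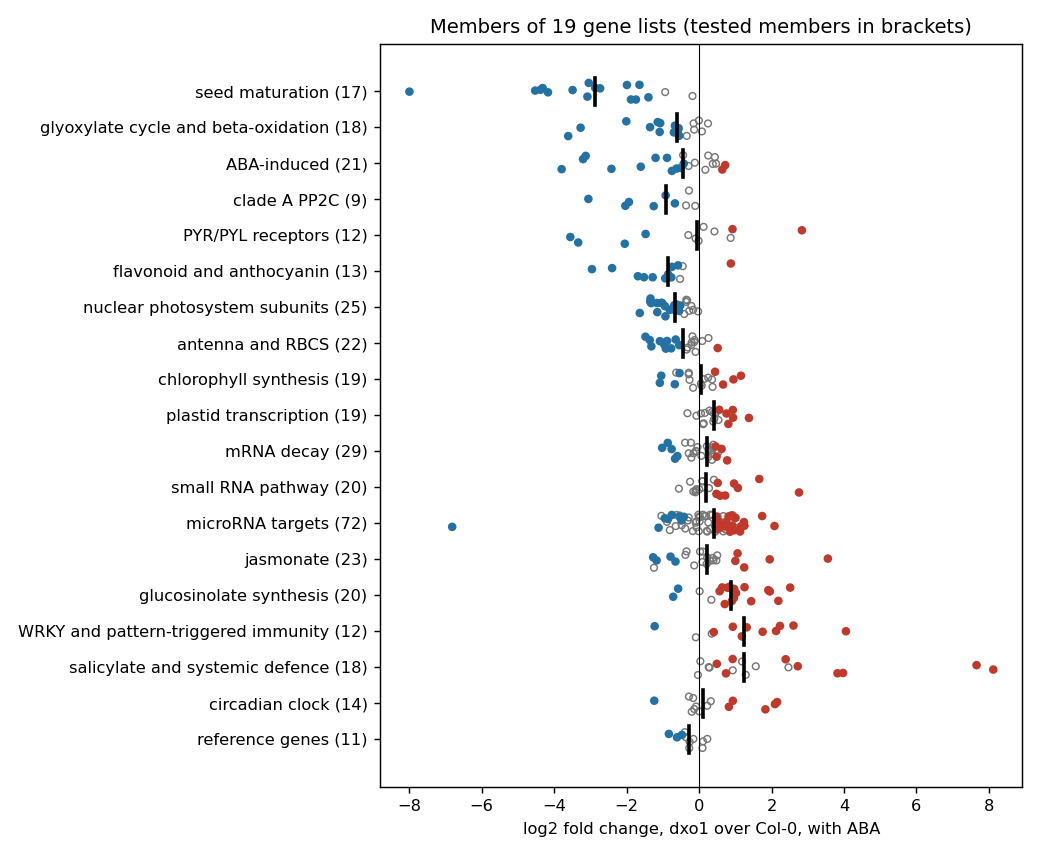
Log2 fold change of dxo1 over Col-0 with ABA for the tested members of 19 gene lists, with their number in brackets. Filled points passed the test (red higher, blue lower), open points did not, and the black bar is the median, from -2.87 for seed maturation to 1.25 for WRKY and pattern-triggered immunity genes.

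Among 21 ABA-induced genes, 11 were lower and 2 higher, with a median of -0.44. With library size alone the count was 8 lower and 7 higher, and the median -0.17. RAB18, a dehydrin, was at 2447 and 2196 CPM in Col-0 and 255 and 275 CPM in dxo1, and fell by 3.13 ± 0.18 (adjusted p = 3.1e-10). RD29B, another desiccation gene, was at 1466 and 1568 CPM in Col-0 and 321 and 246 CPM in dxo1, and fell by 2.42 ± 0.17. LEA4-5, a late embryogenesis protein, was at 373 and 356 CPM in Col-0 and 19.4 and 32.9 CPM in dxo1, and fell by 3.79 ± 0.22, and the LEA family gene AT3G02480 fell by 3.20 ± 0.21. The genotypes did not overlap in any of these. RD29A, at 1252 and 1441 CPM in Col-0 and 813 and 645 CPM in dxo1, fell by a smaller 0.88 ± 0.16 (adjusted p = 0.00039). COR15A, a cold and drought gene, was at 81.6 and 69.3 CPM in Col-0 and 87.9 and 82.3 CPM in dxo1 and did not pass (0.17 ± 0.15, adjusted p = 0.43). Both dxo1 values lay just above both Col-0 values. The homeobox gene ATHB7 (0.72) and the bZIP factor ABF4 (0.64) were the 2 that rose. None of the list was higher without Col-0 ABA replicate 1, and 1 without dxo1 ABA replicate 1.

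The ABA signalling chain itself was mixed. Of the 9 clade A PP2C phosphatases, which repress ABA signalling and are themselves induced by ABA, 6 were lower and none higher, with a median of -0.92. HAI3 was at 35.2 and 21.7 CPM in Col-0 and 3.85 and 3.02 CPM in dxo1 and fell by 3.06 ± 0.29 (adjusted p = 2.4e-07). HAI2 fell by 2.04 ± 0.21, HAB1 by 1.25 ± 0.20 and PP2CA by 0.92 ± 0.16. ABI1, at 139 and 173 CPM in Col-0 and 141 and 116 CPM in dxo1, did not pass (-0.28). Of the 14 PYR/PYL receptor genes 12 were tested, with 2 higher and 4 lower and a median of -0.06 that turned positive (0.22) with library size alone. Without dxo1 ABA replicate 2 only 1 was higher. PYL6 was at 26.0 and 24.8 CPM in Col-0 and 7.02 and 5.29 CPM in dxo1 and fell by 2.05 ± 0.22, PYL5 by 1.48 ± 0.15 and PYL13 by 3.34 ± 0.54. PYL3 was at 0.530 and 0.581 CPM in Col-0 and 3.51 and 4.53 CPM in dxo1 and rose by 2.84 ± 0.54 (adjusted p = 0.00059). It had enough counts for the test only through dxo1, and PYL13 only through Col-0 with ABA. A call in the other direction was hardly possible for either gene.

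Of 15 genes of ABA synthesis and catabolism 11 were tested, and 4 were higher and 4 lower. The lower count was 2 without Col-0 ABA replicate 1 or dxo1 ABA replicate 1, and the higher count 2 without dxo1 ABA replicate 2. CYP707A3, an ABA 8'-hydroxylase that breaks ABA down, was at 87.8 and 83.4 CPM in Col-0 and 199 and 179.5 CPM in dxo1 and rose by 1.14 ± 0.17 (adjusted p = 6.7e-05). Its relative CYP707A1 fell by 0.78 ± 0.18. ABA1, zeaxanthin epoxidase, rose by 0.61 ± 0.15, and BG1, a glucosidase that frees ABA from its conjugate, fell by 1.24 ± 0.16.

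Many genes of immunity rose in dxo1. PR1, a secreted protein used as a salicylate marker, had 0 and 0 counts in Col-0 and 28 and 39 counts in dxo1. Against a floor of 3 counts over the Col-0 group this was at least 12.5-fold higher in dxo1. PR2, a beta-1,3-glucanase of the same response, had 3 and 5 counts in Col-0 and 95 and 111 counts in dxo1, and rose by 3.82 ± 0.48 (adjusted p = 7.3e-06). ACD6, an ankyrin protein of salicylate signalling, had 1 and 1 counts in Col-0 and 27 and 33 counts in dxo1, a ratio of 16.7 with a 95% exact counting interval of 4.43 to 141. CBP60G, a transcription factor that switches on salicylate synthesis, was at 1.59 and 1.94 CPM in Col-0 and 11.6 and 11.8 CPM in dxo1, and rose by 2.73 ± 0.30. In all 4 genes each Col-0 library held at most 10 counts, and both dxo1 libraries were higher.

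Of the 20 genes of salicylate and systemic defence 18 were tested, 9 were higher and none lower, with a median of 1.24. PR1 and PR5, both at 0 in Col-0, have bounds of 12.5-fold and 9.11-fold. Both bounds stay above that median, so setting the genes to them could not move it. Under the alternative settings the median lay between 0.77 and 1.51. The value of 0.77 came from the stricter low-count filter, which left 7 members. Without Col-0 ABA replicate 1 the median was 0.85. The synthesis gene ICS1 (0.27) and its export partner EDS5 (-0.03) did not pass. Of the 12 WRKY and pattern-triggered immunity genes, 9 were higher and 1 lower, with a median of 1.25. WRKY33, a regulator of defence against fungi, was at 57.4 and 68.3 CPM in Col-0 and 292 and 299 CPM in dxo1, and rose by 2.23 ± 0.16 (adjusted p = 7.6e-09). WRKY46 was at 0.530 and 0.968 CPM in Col-0 and 12.1 and 12.8 CPM in dxo1, and rose by 4.06 ± 0.41. WRKY40 rose by 2.61 ± 0.31, with 4.06 and 1.55 CPM in Col-0 and 16.1 and 18.7 CPM in dxo1. MPK3, a kinase activated by microbial patterns, was at 56.2 and 53.8 CPM in Col-0 and 205 and 167 CPM in dxo1, and rose by 1.75 ± 0.18. The flagellin receptor FLS2 was the one that fell (-1.23).

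Of 20 glucosinolate genes, 15 were higher and 2 lower, with a median of 0.88 that lay between 0.86 and 1.15 under the alternative settings. Glucosinolates are sulphur-rich defence compounds of the cabbage family. BAT5, a plastid transporter of the methionine-derived branch, was at 3.18 and 5.61 CPM in Col-0 and 23.7 and 26.2 CPM in dxo1, and rose by 2.51 ± 0.24 (adjusted p = 2.3e-07). MAM3, the chain-elongating synthase, was at 19.3 and 24.6 CPM in Col-0 and 90.3 and 79.3 CPM in dxo1, and rose by 1.95 ± 0.19. CYP79F1, which makes the aldoximes of this branch, was at 8.83 and 6.78 CPM in Col-0 and 26.6 and 32.3 CPM in dxo1, and rose by 1.91 ± 0.21. TGG2, a myrosinase that cleaves glucosinolates, rose by 1.44 ± 0.17. No genotype overlap was seen in these 4 genes. MYB51, a regulator of the indolic branch, rose by 0.97 ± 0.16 (adjusted p = 0.00011). The 2 that fell, CYP83B1 (-0.71) and MYB34 (-0.58), belong to the indolic branch, and the list had 1 lower gene without Col-0 ABA replicate 1, without either dxo1 replicate or with library size alone.

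Camalexin and antimicrobial genes were divided. Of 10 such genes 7 were tested, 3 were higher and 1 lower. Only 1 was higher without Col-0 ABA replicate 2, and 2 were lower without dxo1 ABA replicate 2. CYP71A13, which acts in camalexin synthesis, was at 12.7 and 11.6 CPM in Col-0 and 3.17 and 2.27 CPM in dxo1, and fell by 2.17 ± 0.31 (adjusted p = 3.1e-05). CYP79B2, which acts upstream of it, rose by 0.77 ± 0.16, and the chitin-binding protein gene PR4 by 0.58 ± 0.15, a call lost without Col-0 ABA replicate 2. CYP71A12, a near copy of CYP71A13, rose by 0.88 ± 0.32. Its call was lost when any one of the 4 libraries was left out except dxo1 ABA replicate 2. Reads that align to both genes may be missing from their counts. Of 24 jasmonate genes 23 were tested, 5 were higher and 4 lower, with a median of 0.21. Over all genes 14.8% were higher and 15.8% lower. Scaling by library size alone gave 10 higher and 3 lower, with a median of 0.48. The lipoxygenase LOX4 was at 19.8 and 23.4 CPM in Col-0 and 82.1 and 84.6 CPM in dxo1 and rose by 1.95 ± 0.18, while the allene oxide cyclase AOC2 was at 103 and 90.2 CPM in Col-0 and 34.7 and 50.6 CPM in dxo1 and fell by 1.17 ± 0.18.

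Most flavonoid and anthocyanin genes that could be tested fell. Of 17 members 13 were tested, 10 were lower and 1 higher, with a median of -0.85. MYB111, a regulator of flavonol synthesis, was at 36.0 and 32.3 CPM in Col-0 and 4.76 and 4.06 CPM in dxo1, and fell by 2.96 ± 0.22 (adjusted p = 1.1e-08). UGT79B1, an anthocyanin glycosyltransferase, was at 17.8 and 18.8 CPM in Col-0 and 3.51 and 3.40 CPM in dxo1, and fell by 2.4 ± 0.28. F3PH, the flavonoid 3'-hydroxylase, fell by 1.69 ± 0.21, and F3H, flavanone 3-hydroxylase, by 1.28 ± 0.17. The glucosyltransferase UGT78D2 was the member that rose (0.88).

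Nuclear photosystem genes were often lower, in moderate steps. Of 25 nuclear photosystem subunits, 17 were lower and none higher, with a median of -0.66, and 11 were lower without Col-0 ABA replicate 1. PSBW, a small subunit of photosystem II, was at 418 and 322 CPM in Col-0 and 110.0 and 128 CPM in dxo1, and fell by 1.64 ± 0.17 (adjusted p = 6.1e-07). PETE2, plastocyanin, was at 5094 and 4731 CPM in Col-0 and 1719.5 and 2158 CPM in dxo1, and fell by 1.34 ± 0.17. PSAK, of photosystem I, fell by 1.32 ± 0.18. In these 3 genes the genotypes did not overlap. With library size alone 12 of the photosystem subunits were lower, with a median of -0.39. Of 22 antenna and Rubisco small subunit genes, 11 were lower and 1 higher, and none was higher without Col-0 ABA replicate 2 or dxo1 ABA replicate 1. LHCB6 was at 1446 and 1219.7 CPM in Col-0 and 389 and 565 CPM in dxo1, and fell by 1.48 ± 0.19, whereas LHCB2.3 was at 862 and 664 CPM in Col-0 and 839.6 and 986 CPM in dxo1 and did not pass (0.26 ± 0.17). RBCS1A, a Rubisco small subunit, was at 5841 and 5269.7 CPM in Col-0 and 4937 and 4654 CPM in dxo1. Its log2 fold change of -0.21 ± 0.16 did not pass and turned to 0.059 with library size alone. On that scale 8 antenna and Rubisco genes were lower and 2 higher, with a median of -0.17 against -0.44 in the main fit.

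Genes encoded in the chloroplast were lower more often than higher. Of 133 chloroplast genes 82 were tested, with 33 lower, 7 higher and a median of -0.44 (13 higher with library size alone). ATCG00670 was at 934 and 971 CPM in Col-0 and 229.9 and 293 CPM in dxo1, and fell by 1.86 ± 0.17. Of 146 mitochondrial genes 27 were tested, with 9 lower and 2 higher (1 higher without either Col-0 replicate or dxo1 ABA replicate 2). The tested mitochondrial genes nevertheless summed to more in dxo1, with 4887.7 and 6029.9 CPM in Col-0 and 6085.4 and 10037.2 CPM in dxo1. For the tested chloroplast genes the sums were 21652.8 and 24521.8 CPM in Col-0 and 21671.0 and 17798.8 CPM in dxo1. Of the 19 nuclear genes of plastid transcription 6 were higher and none lower, with a median of 0.41, and 13 did not pass. The higher count was 13 with library size alone and 4 without Col-0 ABA replicate 1. The sigma factor SIG5 was at 6.89 and 12.8 CPM in Col-0 and 23.4 and 27.2 CPM in dxo1, and rose by 1.38 ± 0.24 (adjusted p = 0.00025). HMR, a partner of the plastid RNA polymerase, rose by 0.94 ± 0.18. Of 19 chlorophyll synthesis genes, 4 were higher and 4 lower (2 lower without Col-0 ABA replicate 1, and 8 higher and 3 lower with library size alone), among them GUN4, an activator of magnesium chelatase, which rose by 1.16 ± 0.17, and CHLD, a subunit of that chelatase, which fell by 1.08 ± 0.17.

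Of 29 mRNA decay genes, 4 were higher and 5 lower, and leaving out any one ABA library brought one or both counts down by more than 1.5 times, to as few as 1 higher (without Col-0 ABA replicate 1) and 2 lower (without Col-0 ABA replicate 2). In the main fit these counts were near the shares over all genes, 14.8% higher and 15.8% lower. With library size alone 13 of the mRNA decay genes were higher and 2 lower. XRN4, the cytoplasmic exonuclease that degrades RNA with a free 5' phosphate, was at 32.7 and 36.6 CPM in Col-0 and 43.3 and 46.0 CPM in dxo1. It did not pass (0.37 ± 0.18, adjusted p = 0.13), although both dxo1 values were above both Col-0 values. UPF2, a nonsense-mediated decay factor, fell by 1.02 ± 0.17, and VCS, the scaffold of decapping, rose by 0.77 ± 0.20. The call for VCS was lost without Col-0 ABA replicate 1.

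Small RNA genes were higher where they passed. Of 22 members 20 were tested, 8 were higher and none lower, with a median of 0.19, and the count was 4 or 5 when any one ABA library was left out. AGO2, an Argonaute of antiviral silencing, was at 7.07 and 7.74 CPM in Col-0 and 14.2 and 14.7 CPM in dxo1, and rose by 0.97 ± 0.22 (adjusted p = 0.0021). DCL2, a Dicer of the same pathway, rose by 1.07 ± 0.22 and AGO3 by 2.76 ± 0.58. AGO1, the main microRNA effector, was at 68.9 and 74.3 CPM in Col-0 and 89.3 and 115 CPM in dxo1, and rose by 0.52 ± 0.17 (adjusted p = 0.027), a call lost without Col-0 ABA replicate 1, Col-0 ABA replicate 2 or dxo1 ABA replicate 2.

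The targets of microRNAs form a class whose 3' cleavage products GMUCT captures. Their families behaved differently, so the microRNAs and the best matching site in a target are shown for the families on which the results turn. The first microRNA below has HD-ZIP III genes as targets, the next NAC genes, then AP2-like genes, auxin receptors and a GRAS gene. Capitals mark the seed, bases 2 to 8 of the mature microRNA, and in each site the bases opposite it, read 5' to 3' from RefSeq TAIR10.1.
miR165a-3p: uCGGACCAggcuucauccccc
PHV site: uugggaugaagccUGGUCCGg
ATHB15 site: cuggaaugaagccUGGUCCGg
miR164a: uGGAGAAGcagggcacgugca
NAC100 site: ucuacgugcccugCUUCUCCa
ORE1 site: cucacgugaccugCUUCUCCg
miR172a: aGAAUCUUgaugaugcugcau
TOE2 site: augcagcaucaucAGGAUUCu
TOE1 site: cagcagcaucaucAGGAUUCu
miR393a-5p: uCCAAAGGgaucgcauugaucc
TIR1 site: gagacaaugcgaucCCUUUGGa
miR171a-3p: uGAUUGAGccgcgccaauauc
SCL27 site: gauauuggcgcggCUCAAUCa
All 8 sites lie in coding sequence, on chromosome 1 for PHV and ATHB15, chromosome 2 for TOE1 and SCL27, chromosome 3 for TIR1 and chromosome 5 for NAC100, ORE1 and TOE2. A match of letters is a description and does not show that the reads counted begin there.

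Of 76 microRNA target genes, 72 were tested, 23 were higher and 8 lower, with a median of 0.40. The higher count was 15 without Col-0 ABA replicate 1 and 12 without dxo1 ABA replicate 2, and the lower count 4 without Col-0 ABA replicate 2 and 5 without dxo1 ABA replicate 1. With library size alone 34 were higher and 5 lower. The miR165 targets, transcription factors of leaf polarity and vascular tissue, were higher in 4 of 5 cases. Of these PHV was at 17.5 and 20.5 CPM in Col-0 and 48.5 and 34.9 CPM in dxo1, and rose by 1.13 ± 0.20 (adjusted p = 0.00034), and ATHB15 rose by 1.15 ± 0.22, with 10.1 and 13.4 CPM in Col-0 and 23.0 and 28.8 CPM in dxo1. REV, the member left, did not pass (0.44).

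Among the 5 miR164 targets, NAC100 was at 3.0 and 3.68 CPM in Col-0 and 13.7 and 14.5 CPM in dxo1, and rose by 2.08 ± 0.26 (adjusted p = 6.1e-06). ORE1, a NAC factor of leaf senescence, was at 33.4 and 37.6 CPM in Col-0 and 25.8 and 28.5 CPM in dxo1 and did not pass (-0.38). Its site had 3 mismatches and 1 G:U pair with the microRNA, against 1 and 1 for NAC100. NAC80, also with 1 and 1, rose by 1.25. CUC2, with 1 mismatch and 2 G:U pairs, did not pass (0.96), nor did NAC1 with 2 mismatches (0.10). Within the miR172 family the signs were opposite. TOE2, a repressor of flowering, was at 77.0 and 87.9 CPM in Col-0 and 163 and 144 CPM in dxo1, and rose by 0.90 ± 0.17 (adjusted p = 0.00063), while TOE1, of the same function, was at 24.4 and 22.6 CPM in Col-0 and 9.18 and 12.4 CPM in dxo1, and fell by 1.12 ± 0.20 (adjusted p = 0.00028). The TOE2 site had no mismatch and 1 G:U pair, and the TOE1 site 2 mismatches and 1 G:U pair. A link between the match of a site and the change of its gene was not tested.

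The auxin receptor TIR1, a miR393 target, was at 59.5 and 65.8 CPM in Col-0 and 41.5 and 45.0 CPM in dxo1, and fell by 0.54 ± 0.16 (adjusted p = 0.014), and AFB3 fell by 0.42 ± 0.16. SCL27, a miR171 target that matches its microRNA at every base, was at 83.4 and 70.1 CPM in Col-0 and 35.6 and 43.9 CPM in dxo1, and fell by 0.95 ± 0.17 (adjusted p = 0.00031). NF-YA3, a miR169 target with 4 mismatches, was at 2.47 and 4.07 CPM in Col-0 and 10.9 and 10.9 CPM in dxo1, and rose by 1.74 ± 0.28. Of the 72 targets, 58 had a site with a penalty of at most 4 (1 for a mismatch, 0.5 for a G:U pair), of which 48 lay in coding sequence, and 19 of these targets were higher and 7 lower.

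**Figure D3:**
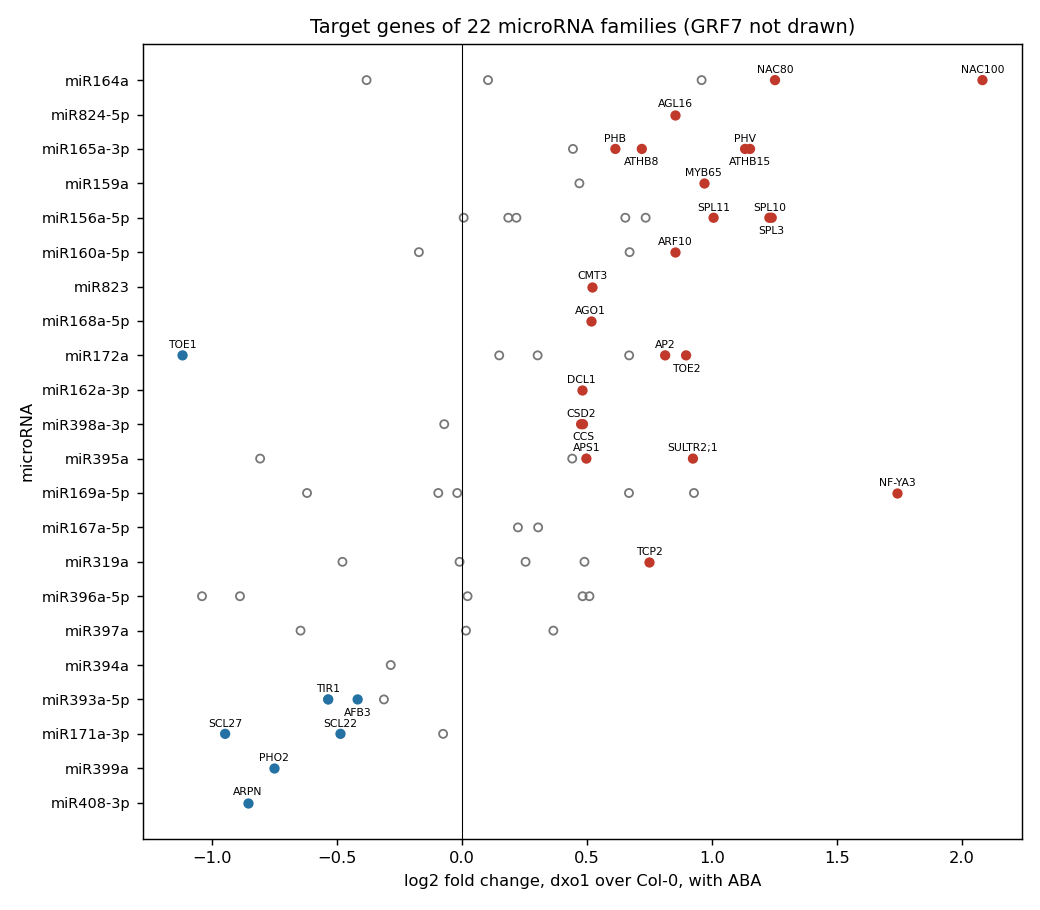
Log2 fold change of dxo1 over Col-0 with ABA for the tested targets of 22 microRNA families, 1 row for each. Filled and named points passed the test (red higher, blue lower) and open points did not; GRF7, with 15 counts in Col-0 and 0 in dxo1, is not drawn. The miR165, miR164, miR156 and miR169 rows reach above 1, and miR393 and miR171 targets lie below 0.

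A few rises stood outside the lists described so far, though AT4G33865 belongs to the ribosomal protein list given further below. AT4G33865, which encodes a ribosomal protein of the S29 family, was at 512 and 518 CPM in Col-0 and 2359.7 and 2720.1 CPM in dxo1, and rose by 2.3 ± 0.17 (adjusted p = 1.3e-08). The long noncoding RNA gene AT3G59068 and the noncoding RNA gene AT4G13495, for which reads of overlapping genes cannot be told apart here, rose by 3.11 ± 0.20 and 3.17 ± 0.22. AT3G59068 was at 41.5 and 46.3 CPM in Col-0 and 330.3 and 429.6 CPM in dxo1, and AT4G13495 at 16.6 and 30.2 CPM in Col-0 and 227 and 194 CPM in dxo1. PP2-B13 and PP2-B14, phloem lectin-like genes of the same family that may lose reads aligning to both, rose by 3.74 ± 0.31 and 3.26 ± 0.30. MAPR2, a membrane steroid-binding protein, was at 2.65 and 1.55 CPM in Col-0 and 16.4 and 16.1 CPM in dxo1, and rose by 2.93 ± 0.29. BHLH100, a factor of the iron deficiency response, had 1 and 0 counts in Col-0 and 107 and 108 counts in dxo1, a ratio of 120 with a 95% exact counting interval of 21.3 to 4757. MIR161, a microRNA precursor gene, was at 2.83 and 5.03 CPM in Col-0 and 9.63 and 49.3 CPM in dxo1. dxo1 ABA replicate 2 stood far above the other 3 libraries. Its log2 fold change of 2.93 ± 1.09 (adjusted p = 0.048) was 1.31 without that library and lost its call without either Col-0 replicate or without dxo1 ABA replicate 2.

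Some falls did so as well, though DYL1 belongs to the dark and sugar starvation list given further below. DYL1, a dormancy-associated gene, was at 1169 and 1347 CPM in Col-0 and 147 and 129.7 CPM in dxo1, and fell by 3.19 ± 0.17 (adjusted p = 2.1e-10). The defensin-like gene AT5G52605 had 41 and 77 counts in Col-0 and 0 and 1 counts in dxo1, a ratio of 212 in favour of Col-0 (interval 37.3 to 8429). AT5G39645, of the same family, had 50 and 120 counts in Col-0 and 2 and 0 counts in dxo1, a ratio of 152 (41.6 to 1269). The berberine-bridge family gene AT5G44440 was at 145 and 137 CPM in Col-0 and 4.98 and 5.10 CPM in dxo1, and fell by 4.8 ± 0.20. The uncharacterized gene AT1G03106 was at 133 and 121 CPM in Col-0 and 4.19 and 4.34 CPM in dxo1, and fell by 4.89 ± 0.21, among the smallest p of all genes (adjusted p = 2e-11). In each of these 5 genes the 2 genotypes were apart in both replicates.

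**Figure D4:**
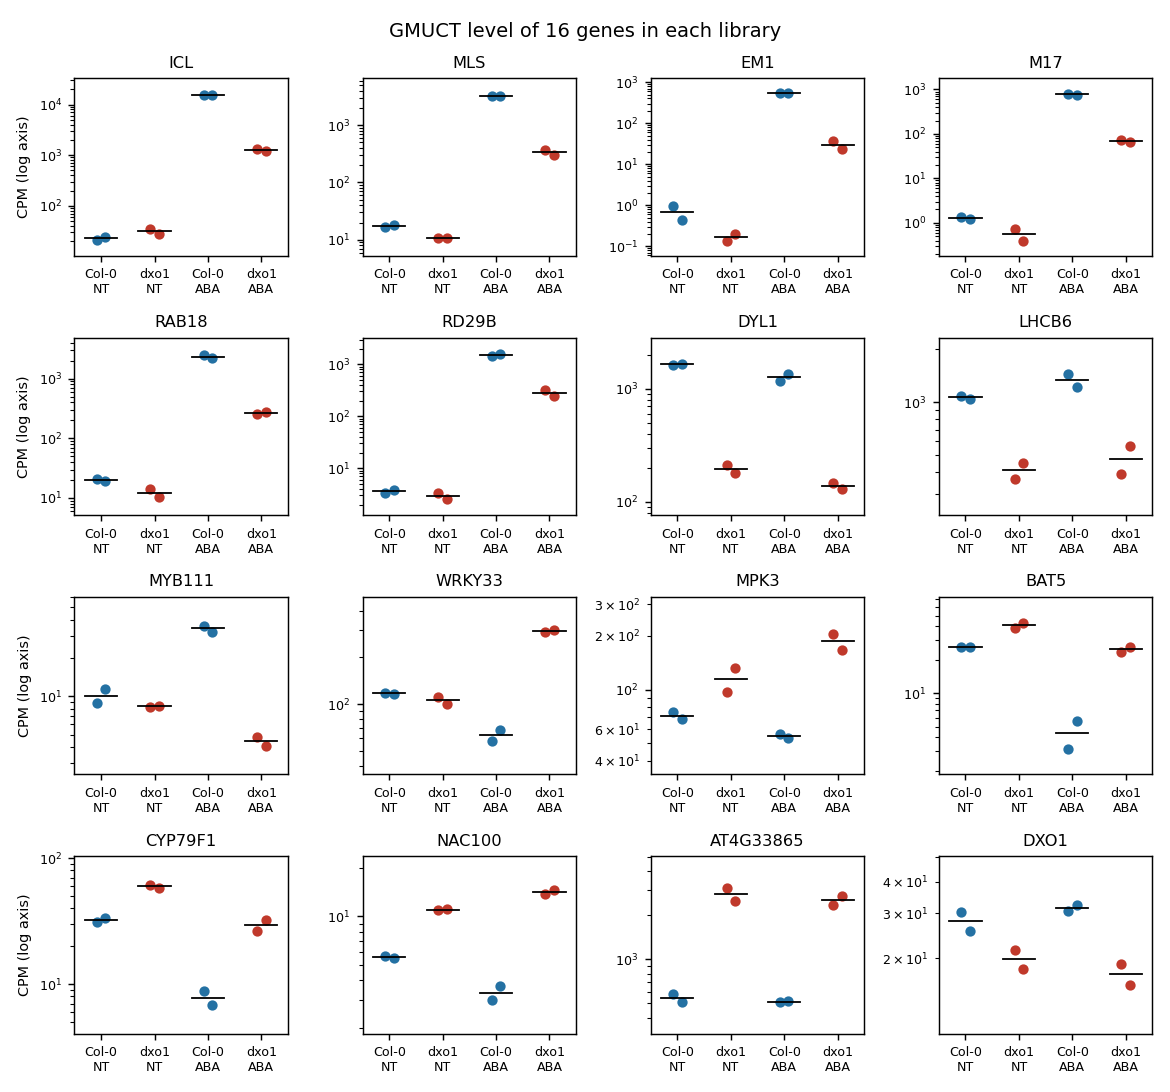
GMUCT level in CPM (log axis) of 16 genes in each of the 8 GMUCT libraries: Col-0 in blue, dxo1 in red, without hormone (NT) and with ABA, each point a library and each line the mean of 2. With ABA, ICL stands at 15270.0 and 15738 CPM in Col-0 and 1328 and 1205 CPM in dxo1, while DYL1, LHCB6, AT4G33865 and NAC100 differ between genotypes in both conditions.

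The same genotypes were also compared without ABA, in 4 other GMUCT libraries that share no sample with the ABA comparison. There 1981 genes were higher in dxo1 (10.1% of those tested) and 2037 lower (10.4%). The total of 4018 was 1683 without Col-0 NT replicate 1, 1359 without Col-0 NT replicate 2 and 2337 without dxo1 NT replicate 2. Of the ABA calls, 1971 were called in the same direction without ABA, which is 32.7% of the ABA calls and 49.1% of the calls without ABA. A further 74 genes were lower with ABA and higher without, and 107 the reverse. In the test of the difference between both genotype effects, 836 genes (4.26%) had a more positive effect with ABA and 917 (4.67%) a more negative one. The total of 1753 was 832 without Col-0 NT replicate 1 and 813 without Col-0 NT replicate 2.

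Gene groups split along this line. Of the 25 photosystem subunits 18 were lower without ABA, and none passed the test of the difference between conditions. PETE2 fell by 1.34 ± 0.17 with ABA and changed by -1.33 ± 0.17 without. DYL1 (-3.19 ± 0.17 and -3.07 ± 0.17) and AT4G33865 (2.3 ± 0.17 and 2.36 ± 0.17) had fold changes of like size in both conditions, with an adjusted p of the difference of 0.81 and 0.93. The 18 glyoxylate cycle and beta-oxidation genes included 2 that were lower without ABA, and 9 had a more negative effect with ABA. ICL changed by 0.47 ± 0.18 without ABA, a difference of -4.08 ± 0.25 on the log2 scale (adjusted p = 2.1e-08). MLS differed by -2.55 ± 0.25 and RAB18 by -2.4 ± 0.25. Of the 17 seed maturation genes 4 were lower without ABA, and 4 had a more negative effect with ABA. Most of these genes had few counts without ABA, as EM1 did at 0.955 and 0.446 CPM in Col-0 and 0.134 and 0.200 CPM in dxo1.

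Of the 13 flavonoid genes, 5 were higher and 1 lower without ABA, with a median of 0.40 against -0.85 with ABA, and 9 had a more negative effect with ABA. UGT75C1 was -0.85 with ABA and 1.65 without. Of the 20 glucosinolate genes 6 were higher without ABA and 9 had a more positive effect with ABA, among them BAT5 with a difference of 1.87 ± 0.30 (adjusted p = 0.00047). WRKY33 changed by -0.15 ± 0.15 without ABA and differed by 2.38 ± 0.22 (adjusted p = 1.7e-06). Of the 18 salicylate genes 9 were higher with ABA and 11 without. PR1 changed by 4.91 ± 0.32 without ABA, where it was at 0.608 and 2.00 CPM in Col-0 and 33.7 and 41.4 CPM in dxo1.

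**Figure D5:**
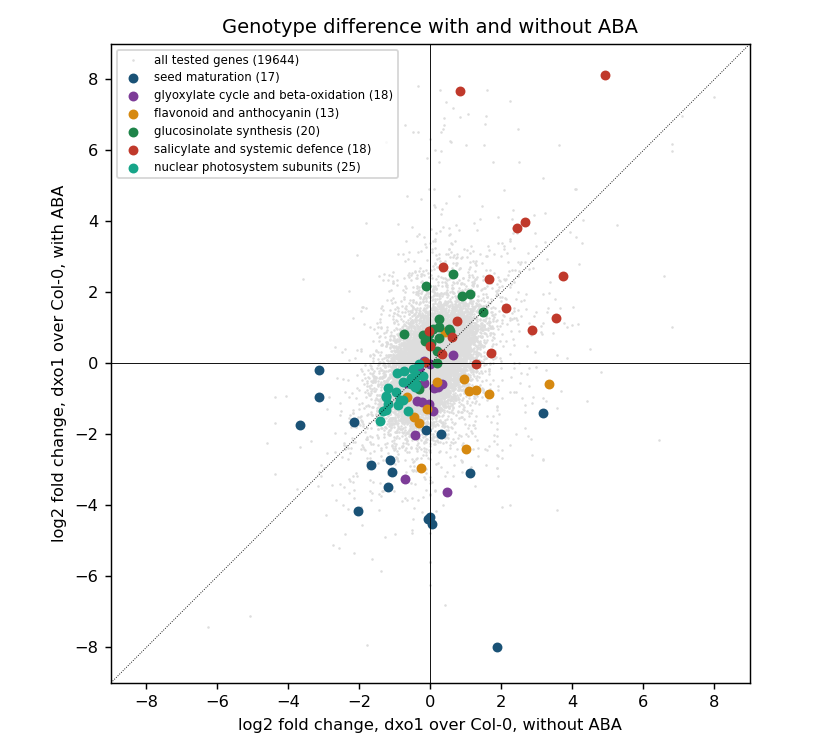
Log2 fold change of dxo1 over Col-0 with ABA (vertical axis) against the same without ABA (horizontal axis), in libraries that share no sample. Grey points are all 19644 tested genes, coloured points the tested members of 6 lists, and the dotted line marks equal effects; the 25 photosystem subunits lie below 0 with ABA and near the line, while flavonoid genes lie mostly below it.

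Total RNA libraries of both genotypes with ABA gave a view of transcript levels at lower depth, 969707 to 2027552 gene counts. The 10 most counted genes took 63.1% to 76.8% of these counts, against 5.46% to 7.82% in the GMUCT libraries with ABA. A total of 4965 genes could be tested. In them 2 genes passed (0.0403%), ICL (-2.54 on the log2 scale) and BXL1, a beta-xylosidase, both lower, with 488 at an unadjusted p under 0.05 in edgeR. DESeq2 called 4 genes. With dxo1 ABA total replicate 1 left out 360 genes passed, and with either Col-0 replicate left out none did. Of the genes higher in GMUCT 784 were tested in total RNA, and 528 of these had a positive fold change there, with a median of 0.28. Of the genes lower in GMUCT 995 were tested, and 603 had a negative one, with a median of -0.15. Over all 4932 genes tested in both, 2601 were positive and 2331 negative, with a median of 0.04.

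By group, all 6 seed maturation genes tested in total RNA were negative there, with a median of -2.02. The glyoxylate and beta-oxidation genes were negative in 15 of 18 cases, with a median of -0.66, and the photosystem subunits in 20 of 25, with a median of -0.35. MLS was -1.33, RAB18 -2.0, OLEO2 -2.13, DYL1 -2.69 and RD29B -0.86 on the log2 scale. AT4G33865 was 2.83, and the glucosinolate genes were positive in 9 of 12 cases, with a median of 0.48. WRKY33 was 0.87 and MPK3 0.17. Other lists had medians of opposite sign in the 2 assays, but these medians cover unlike sets of genes. The GMUCT medians are over all members tested in GMUCT, those of total RNA over the fewer members tested there. Medians of the same members in both assays were not compared. Of 19 microRNA targets 12 were negative in total RNA and 7 positive, with a median of -0.21 against 0.40 in GMUCT. Of 7 small RNA genes 4 were negative, with a median of -0.48 against 0.19, and both flavonoid genes tested were positive, with a median of 1.88 against -0.85. The PYR/PYL, chlorophyll, camalexin, cell cycle, clock and ribosomal protein lists also had medians of opposite sign. None of the list members passed the test in total RNA except ICL.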

How the data were processed

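The deposited files hold read counts per gene, whole numbers without normalization. Per the submitters' processing notes, the authors used cutadapt, STAR 2.4.2a and HTSeq on TAIR10. Per the labels' protocols, reads were single-end and strand-specific. How HTSeq treated strand and overlaps, and which annotation release it read, is not given in the sources used here. Reads of overlapping or antisense genes may therefore be shared. Reads that aligned at several places formed an HTSeq summary row, with 23.9% to 34.0% of the reads in the 4 ABA GMUCT libraries. Near-identical genes may therefore have lost reads. HTSeq summary rows, 27.3% to 36.9% of the reads in the 4 ABA GMUCT libraries and 93.4% to 96.7% in the ABA total RNA libraries, were left out. Symbols came from a RefSeq TAIR10.1 table that matched 27997 of 28775 identifiers (97.3%).

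All 8 GMUCT libraries were fitted together in edgeR 4.0.16 (R 4.3.3) with genotype and treatment groups as the only terms, and the 8 total RNA libraries likewise. The filter on low counts was filterByExpr (minimum count 10) and the scaling TMM. Some genes passed the filter only through the groups where they were high, and for these a call in the other direction was hardly possible. Two-sided quasi-likelihood F tests were adjusted by Benjamini-Hochberg at 0.05 over all genes tested. The SE of a log2 fold change is its size divided by the root of its F value, and CPM are TMM scaled. Where a group had 0 counts, its fold was computed against 3 counts for that group. Intervals and floors cover counting error only. The fits were also run on simulated counts in which few genes changed, equally up and down. That setting differs from the data and cannot speak to the choice of scaling. Replicates differed beyond sampling noise (chi-square per degree of freedom 5.16 in Col-0 ABA and 13.8 in dxo1 ABA).

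The gene lists and the comparison were chosen with earlier results of these data known. The ribosomal list was built from product names and includes nuclear genes of plastid and mitochondrial ribosomes. Genes were named by rule: the 12 largest changes each way with a mean of at least 5 CPM, the 8 smallest p, up to 4 per list by p, the 4 smallest p for the difference between conditions, and 10 genes always allowed. Not all 155 genes meeting it are printed, and other list members, microRNA targets and iron genes were named after their values were seen. Genes named by p or by size of change mostly separate the genotypes through that choice. Remarks on genotypes that did not overlap are therefore a description and no added support. The share of all genes without such overlap was not computed. Mature microRNAs and target sites were read from RefSeq TAIR10.1, taking for each target the window of its spliced transcripts with the lowest penalty. No coordinates are given, since the files use TAIR10. Results were recomputed with a replicate block, with the 4 libraries of a contrast alone, without each library in turn, without organelle genes, with no filter or a filter at a mean of 10 CPM, with size factors or the Wald test of DESeq2 1.42.0, and with unscaled library sizes. A fit of nuclear protein-coding genes was chosen after seeing the data. The NAD capture libraries were not used here.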

Additional observations from a re-analysis of the deposited data

Results flagged for a closer look

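Of the 155 genes that met the naming rule, 62 passed the test of the difference between the genotype effect with ABA and that without. The 10 given here are the 4 with the smallest p in that test and those with calls of opposite sign in both conditions. Values are the effect with ABA minus the effect without, on the log2 scale, with SE.

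ICL differed by -4.08 ± 0.25 (adjusted p = 2.1e-08), with a fall of 3.61 with ABA and a change of 0.47 ± 0.18 without. AT1G04660, a glycine-rich protein gene, differed by -3.72 ± 0.24 (adjusted p = 3.1e-08). It was at 238 and 269 CPM in Col-0 and 20.3 and 21.7 CPM in dxo1 with ABA, and at 10.2 and 10.7 CPM in Col-0 and 10.8 and 12.1 CPM in dxo1 without. BT5, a BTB and TAZ domain protein, differed by 3.14 ± 0.23 (adjusted p = 9.6e-08). It was at 14.5 and 14.9 CPM in Col-0 and 79.7 and 87.0 CPM in dxo1 with ABA, and at 158 and 157 CPM in Col-0 and 101 and 102 CPM in dxo1 without, so that dxo1 was the higher genotype in one condition and the lower in the other. The bHLH gene AT2G43140 differed by -3.30 ± 0.24 (adjusted p = 9.6e-08), with -2.04 ± 0.18 with ABA and 1.27 ± 0.15 without. DIC2, a mitochondrial dicarboxylate carrier, differed by 3.22 ± 0.23 (adjusted p = 9.6e-08), with 2.05 ± 0.17 with ABA and -1.16 ± 0.16 without.

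CYP71A13 differed by -8.62 ± 0.69 (adjusted p = 4.1e-07). Without ABA its 2 dxo1 libraries held 159 counts together against 1 in Col-0, a ratio of 109 with a 95% exact counting interval of 19.3 to 4326, whereas with ABA dxo1 was the lower genotype. The clock gene PRR5 differed by 1.48 ± 0.22 (adjusted p = 0.0003), the iron transporter gene IRT1 by 5.78 ± 0.98 (adjusted p = 0.00084), PR4 by 1.25 ± 0.22 (adjusted p = 0.00096) and AO, L-aspartate oxidase of NAD synthesis, by -2.26 ± 0.43 (adjusted p = 0.0023). PRR5, IRT1 and PR4 were higher in dxo1 with ABA and lower without, and AO was the reverse. The call of AO with ABA was lost with library size alone and without Col-0 ABA replicate 1, Col-0 ABA replicate 2 or dxo1 ABA replicate 1, and that of IRT1 without Col-0 ABA replicate 1. Groups of 2 allow no test of an outlying library.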

How the results depend on the processing

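The count of 6025 genes with ABA lay between 4171 and 7549 under every alternative run: 6048 with DESeq2 size factors, 7549 with library size alone, 5089 with the DESeq2 Wald test, 5058 with the 4 libraries alone, and 4171 to 5005 when 1 ABA library was left out. The replicate block gave 6168 genes, and 5971 of the 6025 kept their call and direction under it. The labels do not say whether replicate numbers pair samples across groups. Deviations of replicate 1 from replicate 2 correlated at -0.01 between the ABA groups, and at 0.20 between dxo1 with and without ABA. With 1 such deviation per gene and group, these values cannot settle the pairing. The block moved the counts without ABA (4246) and of the difference between conditions (1918) by less than 1.5 times.

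Leaving out 1 library gave 1359 to 2876 genes without ABA and 813 to 1837 for the difference. With library size alone 72.8% of the calls without ABA and 62.3% of those for the difference were higher, against 49.3% and 47.7%. In total RNA the 2 genes became 0 with library size alone or with the 4 libraries alone, 4 with the DESeq2 Wald test, 54 without a low-count filter, 22 with the replicate block and 0 to 360 when 1 library was left out. The cause was not tested.

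Over the 155 named genes 1895 of the recomputed values kept their direction and side of the threshold, 48 lost their call, 6 gained one and 2 reversed. RBCS1A turned from -0.21 to 0.059 with library size alone, and QRT3, at 0.40, lay between -0.21 (without dxo1 ABA replicate 2) and 0.80 when 1 library was left out. Neither had passed the test. Leaving out a library left 1 sample in its group, whose spread was then taken from the other groups. Groups of 2 samples limit the precision of small changes, and total RNA, at 969707 to 2027552 gene counts, could test 4965 genes.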

Other observations

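Iron genes were looked at after the rise of BHLH100 was seen, so they carry no test as a group. Of 14 looked up, 11 were tested and 8 passed, all higher in dxo1 with ABA. The ferritins FER1 and FER3, which store iron, were among them, while the ferritin FER4 did not pass (-0.24). FER1 was at 164 and 154 CPM in Col-0 and 226 and 265 CPM in dxo1, with a log2 fold change of 0.63 ± 0.15, and FER3 at 51.1 and 38.7 CPM in Col-0 and 74.0 and 90.0 CPM in dxo1, with 0.87 ± 0.17. The bHLH factor FRU, also called FIT, was at 1.59 and 2.71 CPM in Col-0 and 4.64 and 7.08 CPM in dxo1 (1.47 ± 0.37), and the iron sensor BTS at 19.1 and 21.3 CPM in Col-0 and 36.8 and 31.4 CPM in dxo1 (0.76 ± 0.19). IRT1, the iron transporter of the root, had 0 and 1 counts in Col-0 and 18 and 13 counts in dxo1, a ratio of 17.3 with a 95% exact counting interval of 2.88 to 704. FRO2, the ferric reductase, was at 0.707 and 1.74 CPM in Col-0 and 0.680 and 0.567 CPM in dxo1 and did not pass (-0.95).

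Lists not described above gave these counts, against 14.8% higher and 15.8% lower over all genes. Of 18 cell cycle genes 5 were higher and 1 lower (3 higher without Col-0 ABA replicate 2, 2 without dxo1 ABA replicate 2, and 9 with library size alone; 0 lower with library size alone, without either Col-0 replicate or without dxo1 ABA replicate 1), with MCM2, a replication licensing factor, at 0.75 ± 0.17. Of 18 NAD synthesis and use genes 4 were higher and 2 lower (8 and 0 with library size alone, 0 lower without Col-0 ABA replicate 1 or dxo1 ABA replicate 1, and 1 lower without either of the other libraries), with the Nudix hydrolases NUDT19 at 1.17 ± 0.20 and NUDT7 at 0.92 ± 0.17. Of 9 mitochondrial retrograde genes 3 were higher (6 with library size alone) and none lower, with DIC2, the ATPase gene OM66 (1.98 ± 0.28) and the alternative oxidase AOX1A (0.75 ± 0.16). Of 14 clock genes 5 were higher and 1 lower (3 higher without Col-0 ABA replicate 1). CCA1, a morning factor, was at 1.06 and 0.968 CPM in Col-0 and 5.32 and 3.87 CPM in dxo1 (2.15 ± 0.44), and ELF4, an evening factor, at 48.4 and 45.1 CPM in Col-0 and 19.7 and 19.9 CPM in dxo1 (-1.24 ± 0.18). The hour of harvest is not given in the sources used here.

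Of 11 dark and sugar starvation genes 9 were tested, 1 was higher and 4 lower, with asparagine synthetase ASN1 at -1.50 ± 0.16. Of 14 heat shock genes 12 were tested and 3 were lower (1 lower and 1 higher with library size alone), with HSP90.1 at -1.20 ± 0.18. Of 16 root markers 15 were tested, with 3 higher and 4 lower (2 lower without dxo1 ABA replicate 2, and 1 higher without Col-0 ABA replicate 1). CASP2, of the root endodermis, was 0.98 ± 0.21 and WOX5, of the root tip, -1.93 ± 0.45. Of 327 ribosomal protein genes 295 were tested, with 38 higher and 33 lower and a median of -0.04 that turned to 0.23 with library size alone, when 74 were higher and 12 lower. The lower count was 14 without Col-0 ABA replicate 1 and the higher count 23 without Col-0 ABA replicate 2. Of 11 reference genes 3 were lower, among them ACT8 at -0.83 ± 0.16, with a median of -0.27 that library size alone moved to 0.00. A single one was lower with library size alone, without either Col-0 replicate or without dxo1 ABA replicate 1.

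By class, 9 of 28 tested microRNA precursor genes were higher and 1 lower, with a median of 0.59. Of 53 snoRNA genes 6 were higher and 14 lower, with a median of -0.39, and of 132 long noncoding RNA genes 25 were higher and 13 lower, with a median of 0.29. Longer genes tended to higher values: the median log2 fold change was -0.08 in the shortest length class of 4 (15.5% higher and 20.3% lower) and 0.15 in the longest (18.5% and 10.7%). Without ABA these medians were -0.10 and 0.11. The part of gene length in the list counts was not tested.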
